A study of Mus musculus with 8 samples.

Results

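The 10 genes described here are known from macrophages that enter the liver from the blood and from macrophages that take up lipid. They are the cell-surface genes Trem2, Ccr2 and Itgax, the secreted proteins Spp1 and Lgals3, the membrane glycoprotein gene Gpnmb, the tetraspanins Cd9 and Cd63 and the proteases Mmp12 and Ctsk. Members were chosen by name: every probe other than a control whose gene name on the array was one of the 10, which gave 14 of 41174 probes. A probe was kept when the scanner software marked it well above background on at least 2 of the 8 arrays. This left 9 of the 14 probes and 8 of the 10 genes, among 15340 genes tested. Trem2, Cd9, Spp1, Lgals3 and Cd63 were well above background on all 8 arrays and Itgax on 7. The probe used for each of the 8 matched the RefSeq transcript of its gene by accession. Gpnmb and Ccr2 reached that level on the 12-week and 20-week arrays, 4 of 8, so their place among the tested genes rests on those weeks. The probes of Mmp12 and Ctsk did not reach it on any of the 8 arrays and were not tested.

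The series compared liver RNA between AIM-/- and AIM+/+ mice of the C57Bl/6 strain background. Cd5l encodes AIM, the apoptosis inhibitor of macrophage, which macrophages of tissues secrete. The 8 groups were AIM-/- on normal chow (0 weeks), AIM-/- after 6, 12 and 20 weeks of high-fat diet, AIM+/+ on normal chow, and AIM+/+ after 6, 12 and 20 weeks of high-fat diet. Total liver RNA of each group was hybridised to 1 one-colour array. The labels do not say whether an array holds 1 animal or a pool, and give neither sex nor age. Chow livers were sampled at 0 weeks alone, so the diet and the time spent on it cannot be told apart.

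The targeted gene separated the genotypes: the scaled signal of Cd5l was between 90.9 and 173 on the 4 AIM-/- arrays and between 11792 and 30606 on the 4 AIM+/+ arrays (log2 difference -7.35, SE 0.12, adjusted p = 0.000331, limma). Scaled signal is the processed intensity divided by the array's 75th percentile and returned to one common scale, and it compares arrays for 1 probe but not probes with each other. All AIM-/- arrays were on slide 2 and all AIM+/+ arrays on slide 1, so genotype and slide cannot be told apart. The 20-week arrays stood apart from the other 6 in sex-linked genes. The brightest Xist probe gave 3692 on the AIM-/- and 3954 on the AIM+/+ array at 20 weeks and at most 14.4 on the others. Another Xist probe gave 764 in AIM-/- and 805 in AIM+/+ liver at 20 weeks. It was also well above background in AIM-/- liver at 6 weeks (155) and in AIM+/+ liver at 12 weeks (67.0). Kdm5d, Ddx3y and Eif2s3y from the Y chromosome were at background on both 20-week arrays alone. The members' diet, genotype and interaction results are therefore also given without the 20-week arrays, and those of the other gene lists are not.

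Macrophages of the healthy liver are mostly resident Kupffer cells. During overfeeding, monocytes follow the chemokine Ccl2 through its receptor Ccr2, enter the tissue and become macrophages. Some of these cells gather around dying or lipid-laden cells, load lipid into lysosomes and switch on a programme headed by the lipid receptor Trem2, with Gpnmb, Spp1, Cd9 and lysosomal genes, and are then called lipid-associated macrophages. Several of the genes are not limited to macrophages: cholangiocytes of the bile ducts also make Spp1, and Cd9, Cd63 and Lgals3 are expressed by many cell types.

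The stretches around the start sites of 4 genes that varied together over the arrays are shown because they hold letters recognised by factors known from myeloid cells. They run from 130 bases before the start to 20 after it on the plus strand, from RefSeq on GRCm38.p6: Trem2 at chr17:48346271-48346420, Itgax at chr7:128129420-128129569, Spp1 at chr5:104434981-104435130 and Gpnmb at chr6:49036388-49036537. Capitals mark TGANTCA, the AP-1 motif, and GAGGAA or its reverse complement TTCCTC, the core bound by the myeloid factor PU.1.
Trem2: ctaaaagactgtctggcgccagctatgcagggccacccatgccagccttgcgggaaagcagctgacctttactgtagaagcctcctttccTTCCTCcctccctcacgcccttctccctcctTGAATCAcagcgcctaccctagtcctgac
Itgax: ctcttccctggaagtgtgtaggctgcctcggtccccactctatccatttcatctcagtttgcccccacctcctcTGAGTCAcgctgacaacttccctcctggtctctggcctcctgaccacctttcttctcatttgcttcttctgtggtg
Spp1: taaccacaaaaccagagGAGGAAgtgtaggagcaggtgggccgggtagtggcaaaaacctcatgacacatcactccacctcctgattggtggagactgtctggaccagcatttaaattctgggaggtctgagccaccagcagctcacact
Gpnmb: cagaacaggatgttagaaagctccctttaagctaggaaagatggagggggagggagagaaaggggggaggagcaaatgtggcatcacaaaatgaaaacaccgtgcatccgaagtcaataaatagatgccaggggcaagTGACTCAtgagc
In Trem2 the AP-1 letters TGAATCA begin 9 bases before the start and TTCCTC begins 40 bases before it. In Itgax TGAGTCA begins 56 bases before the start, in Spp1 GAGGAA begins 113 bases before it, and in Gpnmb TGACTCA begins 8 bases after it. The motifs did not overlap each other. RefSeq holds 12 windows of 300 bases for the 10 genes, searched on both strands. AP-1 letters were in 4 of the 12 (Gpnmb, Itgax, Mmp12 and Trem2), against 7.81% of all 32851 windows. The PU.1 core was in 5 of the 12 (Cd63, Ctsk, Mmp12, Spp1 and Trem2), against 28.3% of all windows. The letters CACGTG, the E-box read by the lysosomal regulators Tfeb and Tfe3, were in 0 of the 12, against 7.15%. A match is a description of the letters and does not show that a factor binds.

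On the high-fat diet Spp1 rose. Ccr2 also passed the test, but it was not well above background on either chow array and entered the test through late diet arrays, so its direction was fixed beforehand. Trem2, Itgax, Lgals3 and Cd63 stood higher without passing the threshold, and Cd9 differed by less than its error. Gpnmb also stood higher without passing, and its direction was fixed beforehand in the same way as that of Ccr2. Among the surface receptors, Trem2, which binds lipids and lipoproteins and signals through the adaptor Tyrobp, gave scaled signals of 284, 374, 1811 and 741 in AIM-/- livers at 0, 6, 12 and 20 weeks (probe at chr17:47817764-47817823 on mm8, in the Trem2 transcript). In AIM+/+ livers they were 75.3, 211, 1099.6 and 956. Both genotypes were highest at 12 weeks, and the AIM-/- chow array overlapped the AIM+/+ diet arrays. Averaged over both genotypes, the mean of the diet weeks was 2.25 log2 units above chow (SE 0.43, 4.74-fold, 6 arrays against 2), which missed the threshold of 0.05 (adjusted p = 0.0661). The second Trem2 probe followed the first over the 8 arrays (Pearson r = 0.996) and gave a diet difference of 2.48. That size rests partly on background, as its AIM+/+ chow signal of 18.1 was not well above it.

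Itgax encodes CD11c, the integrin alpha X chain of dendritic cells and of inflammatory macrophages. Its signal (probe at chr7:127941686-127941745 on mm8) was 61.2, 93.4, 549.6 and 161 in AIM-/- livers at 0, 6, 12 and 20 weeks. In AIM+/+ livers it was 24.8, 40.8, 278 and 295, and the chow value there was not well above background. AIM-/- livers peaked at 12 weeks, and AIM+/+ livers stood about as high at 20 weeks as at 12. The diet mean was 2.16 log2 units above chow (SE 0.47, adjusted p = 0.0789), a size that rests partly on background. In AIM+/+ livers alone, the 12-week and the 20-week signal were at least 11.2-fold and at least 11.9-fold above chow. Such bounds count a dim array at its own signal or, where that is higher, at the lowest signal that the software marked well above background on that array. Here its own signal was the higher.

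Ccr2, the receptor that draws monocytes out of the marrow and into tissue, was dim (probe at chr9:123957008-123957067 on mm8). Its AIM-/- signals at 0, 6, 12 and 20 weeks were 9.05, 20.6, 81.5 and 32.1, and its AIM+/+ signals 6.97, 10.7, 72.4 and 37.4. Chow and 6-week arrays were not well above background in either genotype, so the order among those 4 arrays was not measured. At 12 weeks it was at least 2.45-fold above chow in AIM-/- and at least 3.13-fold in AIM+/+ livers. At 20 weeks it was at least 1.62-fold above chow in AIM+/+ livers, and in AIM-/- livers its signal lay under the lowest one marked on the chow array, so no fold is given. The diet test gave an adjusted p of 0.0393, with 4 of 6 diet arrays and 0 of 2 chow arrays well above background. A gene that is above background on the late diet arrays alone could only differ in that direction.

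Of the secreted proteins, Spp1 showed the widest range. It encodes osteopontin, a phosphoprotein that binds integrins and CD44 and attracts macrophages. At 0, 6, 12 and 20 weeks its signal (probe at chr5:104681071-104681130 on mm8) was 544, 2053, 27316 and 8036 in AIM-/- livers, and 459.8, 703, 9646 and 11845 in AIM+/+ livers. Every diet array lay above both chow arrays, and the AIM-/- array at 12 weeks was the highest of the 8. Spp1 rose on the diet by 3.52 log2 units (SE 0.47, 11.5-fold, adjusted p = 0.0468), and its diet coefficient ranked 19 of 15340. The array carries 10 copies of the Spp1 spot, and after outlier spots were left out their signals varied within an array by a coefficient of variation of 1.64% to 7.58%, far less than the signals varied between arrays.

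Lgals3 encodes galectin-3, a lectin that binds beta-galactosides and marks phagocytosing macrophages. Its signal (probe at chr14:46306600-46307416 on mm8) was 482, 930.0, 3217 and 707 in AIM-/- livers at 0, 6, 12 and 20 weeks and 378, 720.5, 2389 and 1251 in AIM+/+ livers. All diet arrays lay above both chow arrays, with the peak at 12 weeks in both genotypes. The diet difference was 1.59 log2 units (SE 0.29, 3.02-fold, adjusted p = 0.0617). Groups without overlap, with every diet array above every chow array, were thus seen in Spp1 and Lgals3, 2 of the 5 genes measured on all arrays, against 10.2% of the 12438 genes so measured.

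Gpnmb encodes a transmembrane glycoprotein that appears in lysosome-rich macrophages. At 0, 6, 12 and 20 weeks its AIM-/- signals were 7.05, 28.6, 182 and 44.1 and its AIM+/+ signals 5.66, 6.04, 124 and 68.9 (probe at chr6:48985973-48986032 on mm8). The 12-week and 20-week arrays were well above background, with the 12-week array the highest in each genotype. At 12 weeks it was at least 5.46-fold above chow in AIM-/- livers and at least 5.36-fold in AIM+/+ livers. At 20 weeks the bounds were at least 1.32-fold and at least 2.98-fold. The test over weeks and genotypes gave an adjusted p of 0.0646 (limma), with 4 of 6 diet arrays and 0 of 2 chow arrays well above background. As for Ccr2, the direction of Gpnmb in that test was fixed beforehand. The other Gpnmb probe stayed at background throughout.

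The tetraspanins are membrane proteins that organise other receptors. Cd63, which lies in the membrane of late endosomes and lysosomes, gave 368, 630.4, 3734 and 997 in AIM-/- livers at 0, 6, 12 and 20 weeks and 314, 253, 1628 and 1394 in AIM+/+ livers (probe at chr10:128314551-128314764 on mm8). The AIM+/+ array at 6 weeks lay below both chow arrays, and the 12-week array was the highest in each genotype. The diet difference was 1.63 log2 units (SE 0.39, 3.09-fold, adjusted p = 0.0938). Cd9, which sits at the cell surface and is used with Trem2 to define lipid-associated macrophages, gave 1579.9, 1357, 3847 and 1556 in AIM-/- livers and 1726, 828.6, 2275 and 2543 in AIM+/+ livers (probe at chr6:125425988-125426047 on mm8). Its chow arrays lay inside the range of the diet arrays, and its lowest array was AIM+/+ at 6 weeks. The diet difference of Cd9 was 0.16 log2 units (SE 0.33, 95% interval -0.69 to 1.003, adjusted p = 0.790), an interval that reaches a 2-fold rise.

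Neither protease was measured above background. Mmp12, the macrophage metalloelastase, ranged from 4.69 to 26.1 in AIM-/- livers and from 6.49 to 16.7 in AIM+/+ livers. Ctsk, cathepsin K, a cysteine protease best known from osteoclasts, ranged from 6.29 to 20.4 in AIM-/- livers and from 7.23 to 13.5 in AIM+/+ livers. The highest Mmp12 value in each genotype was at 12 weeks, but signals at this level have only an upper bound. The Ctsk probe lies 8.14 Mb from the Cd5l probe on chromosome 3 (mm8).

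**Figure D1:**
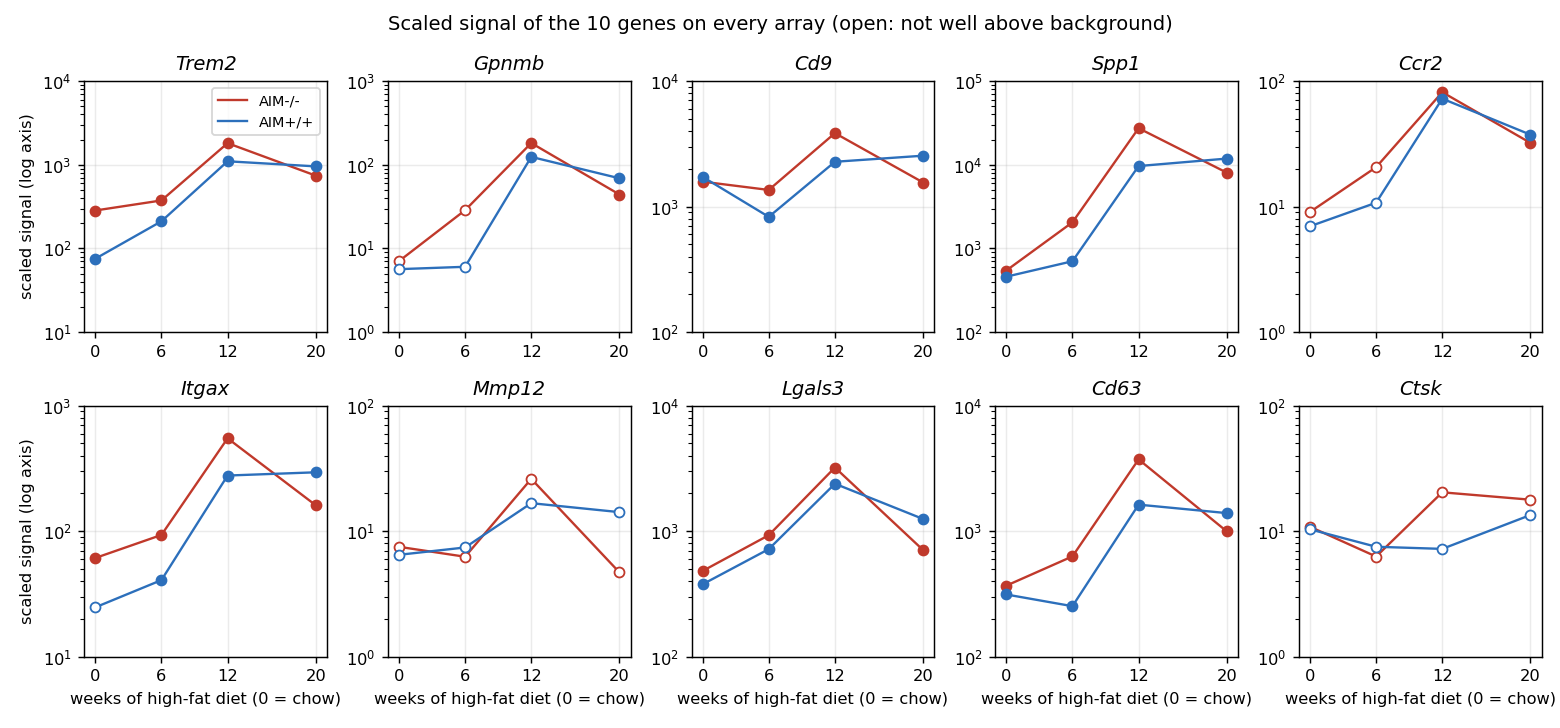
Scaled signal (arbitrary units, log axis) of the 10 genes on each of the 8 arrays against weeks of high-fat diet, with AIM-/- arrays in red and AIM+/+ arrays in blue. Each point is 1 array and open points were not well above background. Except for the dim proteases, the red line peaks at 12 weeks in every panel and lies below the blue line at 20 weeks.

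Across the members, the diet comparison called 2 of the 8 tested genes, Spp1 and Ccr2, against 2.33% of all genes tested and 1.54% called higher. Among the 5 genes well above background on all arrays, the call was Spp1 alone, and the direction of Ccr2 was fixed by the filter. Both calls sat just under the threshold: the adjusted p of the other 5 genes with a diet coefficient above 1 ran from 0.0617 to 0.0938. Of these 5, Gpnmb also had its direction fixed by the filter. Spp1 lost its call when any 1 of the 8 arrays was left out (adjusted p between 0.0668 and 0.198), and Ccr2 when any array except AIM+/+ at 6 weeks was left out (0.0633 to 0.169 among the losses). Without both 20-week arrays 0 of the 8 were called, and the differences ran from 0.10 (Cd9) to 3.14 (Spp1) with adjusted p from 0.0875 to 0.842. In bulk liver, fewer cells of a type and less RNA per cell cannot be told apart. With 1 array a group, the error behind these p-values is how far the genotype difference varied from week to week. Any spread between animals or arrays is mixed into it and was not measured separately.

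The step between 6 and 12 weeks was the largest of the 3 steps between neighbouring weeks for each of the 8 tested genes, with the dim values of Gpnmb and Ccr2 taken as they stand. Spp1 at 12 weeks was 13.5-fold above 6 weeks over both genotypes (log2 difference 3.76, SE 0.57), Itgax 6.33-fold (2.66, SE 0.57), Cd63 6.17-fold (2.63, SE 0.48) and Trem2 5.02-fold (2.33, SE 0.52). Lgals3 was 3.39-fold and Cd9 2.79-fold higher, and the bounds of Gpnmb and Ccr2 were at least 5.16-fold and at least 2.64-fold. The comparison called 0 of the 8, as it called 0% of all 15340 genes (limma, 2715 at an unadjusted p under 0.05), and the members' adjusted p ran from 0.101 to 0.184. The unadjusted p of Trem2, Cd9, Spp1, Itgax, Lgals3 and Cd63 lay under 0.05 (limma), with 0.0144 for Cd9 as the highest. Gpnmb and Ccr2 entered the test through the 12-week and 20-week arrays, so their direction in this step was fixed beforehand. In both genotypes separately, all 5 members measured on all 8 arrays were at least 2-fold higher at 12 than at 6 weeks, against 1.73% of the 12438 genes so measured. Without the 20-week arrays the differences were the same and the adjusted p ran from 0.117 to 0.177.

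The first 6 weeks showed less. Over both genotypes the 6-week signal stood 1.26 log2 units above chow for Spp1 (SE 0.57, adjusted p = 0.511), 0.94 for Trem2 (SE 0.52, 0.567) and 0.94 for Lgals3 (SE 0.35, 0.446). Cd63 differed by 0.23 and Cd9 by -0.64. None of the 8 was called, against 0.00652% of all genes (1 gene). At the last step, the 20-week signal lay below the 12-week one by log2 differences between -0.57 (Cd9) and -1.56 (Lgals3), with 0 of the 8 called (adjusted p 0.243 to 0.597), against 0.117% of all genes. That step joined opposite courses: in AIM-/- livers all 8 genes were lower at 20 than at 12 weeks, while in AIM+/+ livers Spp1, Cd9 and Itgax were higher. It also crosses the difference in sex-linked genes, whose part was not tested.

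**Figure D2:**
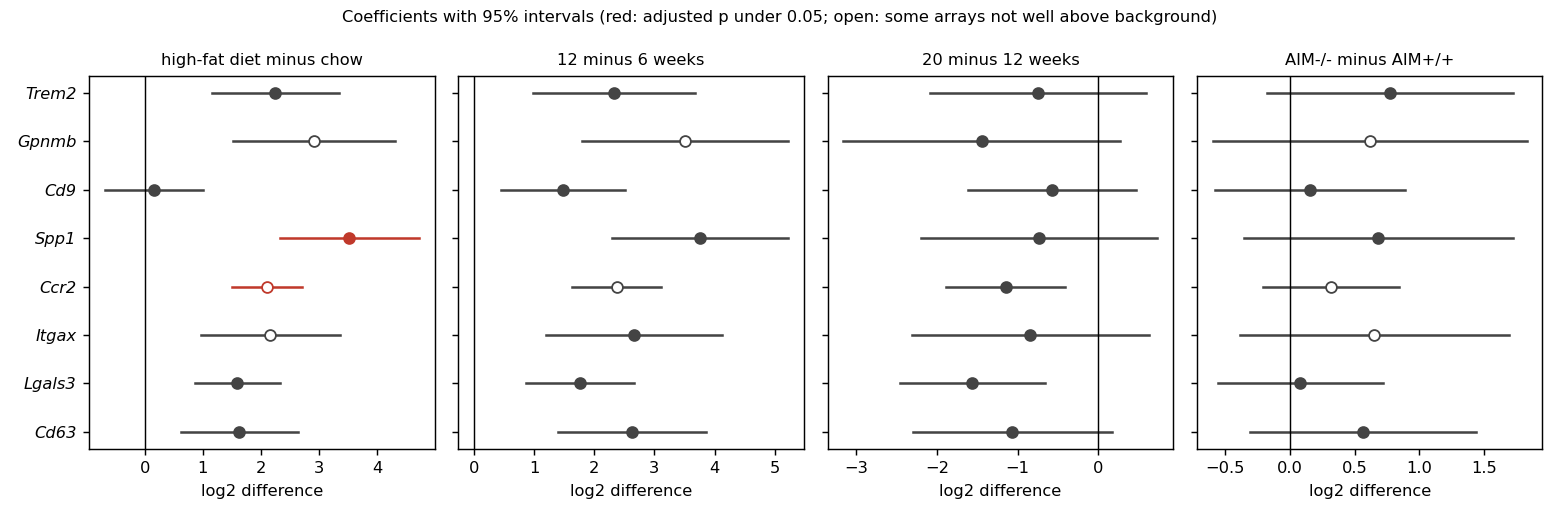
Log2 differences of the 8 tested genes with 95% intervals for high-fat diet minus chow, 12 minus 6 weeks, 20 minus 12 weeks and AIM-/- minus AIM+/+. Red marks an adjusted p under 0.05, which only Spp1 and Ccr2 on the diet reached, and open points had arrays that were not well above background.

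Between the genotypes, the averaged difference was positive for all 8 genes and called for 0, against 0.0326% of all genes tested (5 genes, Cd5l among them). It was 0.77 log2 units for Trem2 (SE 0.37, 95% interval -0.18 to 1.72), 0.68 for Spp1 (SE 0.40), 0.65 for Itgax (SE 0.40) and 0.57 for Cd63 (SE 0.34). For Cd9 it was 0.16 and for Lgals3 0.08, less than their standard errors of 0.29 and 0.25. The adjusted p was 0.969 or above for all 8. These averages joined weeks that pointed in different directions. Without the 20-week arrays they ran from 0.38 (Lgals3) to 1.16 (Itgax), with adjusted p from 0.618 to 0.923.

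Week by week, 1 AIM-/- array stood against 1 AIM+/+ array, so no test was made and genes at least 2-fold apart were counted. On chow, Trem2 was 3.77-fold and Itgax at least 2.47-fold higher in AIM-/- liver, while Cd9, Spp1, Lgals3 and Cd63 differed by 0.35 log2 units or less. Gpnmb and Ccr2 were at background there in both genotypes. These were 2 of the 8 genes, against 2.91% of all genes higher. At 6 weeks Spp1 was 2.92-fold, Cd63 2.49-fold and Itgax 2.29-fold higher in AIM-/- liver (3 of 8, against 3.06%). At 12 weeks Spp1 was 2.83-fold and Cd63 2.29-fold higher, with Itgax at 1.98-fold (2 of 8, against 2.54%). At 20 weeks 0 of the 8 were 2-fold apart, against 4.16% of all genes, and all 8 lay on the AIM+/+ side, by log2 differences between -0.22 (Ccr2) and -0.87 (Itgax).

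The same order of genotypes thus held for Trem2, Cd9, Spp1, Itgax, Lgals3 and Cd63: AIM-/- above AIM+/+ at 6 and at 12 weeks and below it at 20 weeks. Among the 5 genes measured on all arrays this was 5 of 5, against 11.3% of genes so measured. Gpnmb and Ccr2 were not well above background in either genotype at 6 weeks, so their order was measured at 12 and 20 weeks alone, and the 12-week difference of Ccr2 was as small as 0.17 log2 units. The AIM-/- array at 12 weeks was the highest of all 8 for 5 of 5, against 15.4%. The members moved together within each array, so 5 genes are not 5 separate observations of this order. Over the 8 arrays, the 28 pairs of tested members had Pearson correlations between 0.669 (Trem2 and Cd9) and 0.989 (Gpnmb and Ccr2), with a median of 0.937, dim values included. All pairs share the same 8 hybridisations. A 1-array difference at a single week cannot be told apart from a difference between animals.

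**Figure D3:**
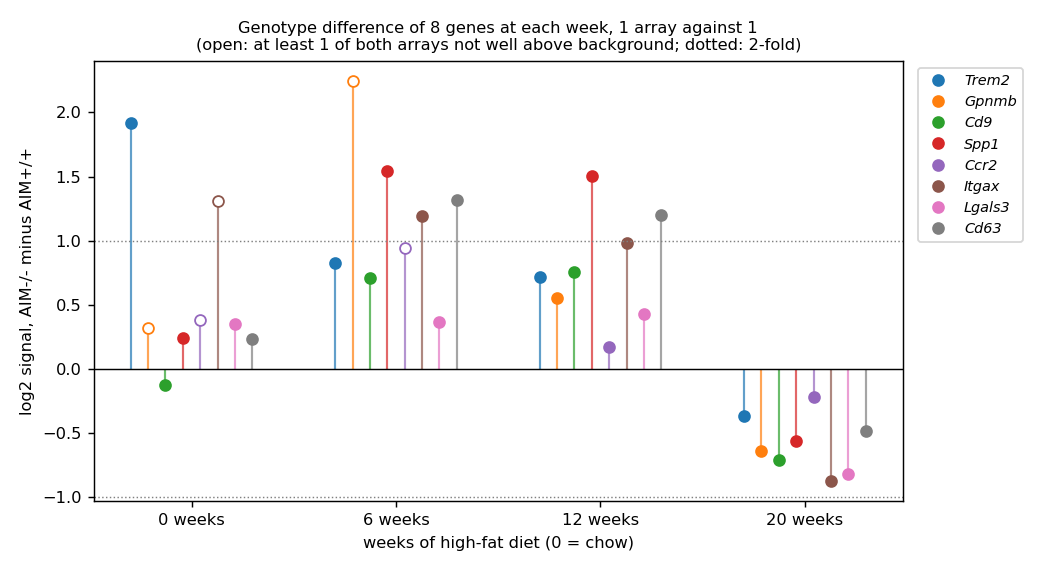
Log2 signal of AIM-/- minus AIM+/+ for the 8 tested genes at 0, 6, 12 and 20 weeks, 1 array against 1, with dotted lines at a 2-fold difference and open points where an array was not well above background. Trem2 stands highest on chow, all points are above 0 at 6 and 12 weeks, and all lie below 0 at 20 weeks.

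Whether the diet acted differently in the genotypes was tested as an interaction. The diet difference was 1.49 log2 units in AIM-/- and 3.01 in AIM+/+ livers for Trem2, which started higher in AIM-/- livers. For Spp1 it was 3.82 in AIM-/- and 3.23 in AIM+/+ livers, and for Lgals3 1.41 in AIM-/- and 1.77 in AIM+/+ livers. Without the 20-week arrays Trem2 had 1.54 in AIM-/- and 2.68 in AIM+/+ livers, and Spp1 had 3.78 in AIM-/- and 2.50 in AIM+/+ livers. The order of the genotypes turned for Lgals3, with 1.84 in AIM-/- and 1.80 in AIM+/+ livers. None of the 8 interactions was called, as 0% of all genes were (limma, 680 at an unadjusted p under 0.05). The 95% interval for Trem2 ran from -5.61 to 2.57. The fit joins the diet weeks of a genotype, so the spread between weeks enters its error. On data simulated without that spread it recovered 3% of 2-fold and 62% of 8-fold changes, so its count of 0 decides little. Without the 20-week arrays 0 of the 8 were called as well, with 0 of all genes called and 629 at an unadjusted p under 0.05 (limma). The fit of a change per week by genotype was chosen knowing that earlier results of these data gave opposite signs at 6 and 20 weeks. Its direction is thus not a separate observation. It gave negative values for all 8 and called 0, with 0% of all genes called and 622 at an unadjusted p under 0.05 (limma). Trem2 had -0.11 log2 units per week (SE 0.02, unadjusted p = 0.0047, adjusted p = 0.9999). On simulated data that fit recovered 0% of genes changed 8-fold, so its count of 0 carries no weight. Without the 20-week arrays the slope stayed negative for 3 of the 8 (Trem2, Ccr2 and Itgax) and turned positive for Spp1, at 0.10 log2 units per week (SE 0.05), and for the other 4 genes. Again 0 genes were called, with 649 at an unadjusted p under 0.05 (limma).

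The partners of these genes are set against the same 1.54% of all genes called higher on the diet. Of the ligands of Ccr2, 1 of 3 tested rose on the diet, Ccl2 by 2.54 log2 units (SE 0.38, adjusted p = 0.0497), and it was the 1 of the 3 well above background on all arrays. Of the 7 receptors of osteopontin, the 6 well above background on all arrays did not pass. The other, Itga4, the alpha 4 integrin chain of leukocytes, passed (adjusted p = 0.0468), but it was well above background on 4 of 6 diet arrays and 0 of 2 chow arrays and could only differ in that direction. Of the 5 genes that carry the Trem2 signal, 0 passed, with a median of 0.81. The smallest p among them belonged to Inpp5d, the phosphatase SHIP1 that restrains the pathway, with 0.93 (SE 0.16, adjusted p = 0.0591).

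Of 22 other genes of lipid-associated macrophages, 2 rose: Cd36, a fatty acid and lipoprotein receptor also made by hepatocytes, by 2.34 log2 units (SE 0.21, adjusted p = 0.0288), and Capg, an actin-capping protein of macrophages, by 1.67 (SE 0.25, adjusted p = 0.0497). The median over the 22 was 0.84, against -0.02 over all genes tested. Of 9 tested markers of recruited monocytes, 3 rose: the probe named Ly6c by 2.62 (adjusted p = 0.0288), S100a4 by 1.91 (adjusted p = 0.0493) and Plac8 by 0.94 (adjusted p = 0.0481). The Ly6c probe was counted as Ly6c1, which endothelial cells also make. Ly6c2, the closely related form of monocytes, had no probe among the genes tested, and whether the Ly6c probe also reads it was not tested. The list had a median of 0.94, with 5 of 9 well above background on all arrays. Of 8 regulators, among them Tfeb, Pparg and Tfec, 0 passed, with a median of 0.10. Pparg, the lipid-sensing nuclear receptor, had 0.86 (SE 0.21, adjusted p = 0.0933).

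Markers of whole cell types are given beside the members. All 13 general macrophage markers, among them Cd68 and Fcer1g, were well above background on all 8 arrays, and 0 of 13 passed, with a median diet difference of 0.72. Their mean stood 0.24, 1.22 and 0.53 log2 units above the mean of both chow arrays in AIM-/- livers at 6, 12 and 20 weeks, and 0.49, 0.98 and 0.93 in AIM+/+ livers. The mean of the 5 members measured on all arrays stood at 1.02, 3.40 and 1.71 in AIM-/- livers and at 0.07, 2.48 and 2.30 in AIM+/+ livers. Of the general macrophage markers, 9 of 13 were higher in AIM-/- liver on chow, 1 of 13 at 6 weeks, 12 of 13 at 12 weeks and 0 of 13 at 20 weeks. At 12 and 20 weeks their direction was thus that of the members, and at 6 weeks it was not. At 12 weeks their median difference was 0.22 log2 units. Of the 22 other genes of lipid-associated macrophages, 14, 13, 19 and 2 were higher in AIM-/- liver at 0, 6, 12 and 20 weeks. Of the 10 stellate cell and fibroblast markers, 6, 8, 7 and 2 were, dim values included in both lists. Among all genes tested the shares were 51.7%, 44.4%, 49.5% and 55.4%. The 12 Kupffer cell markers, Cd5l left out, were above background on all arrays, with 0 of 12 called on the diet (median 0.40) and 9, 2, 6 and 0 of 12 higher in AIM-/- liver at 0, 6, 12 and 20 weeks. The part of macrophage number in the members' differences was not tested.

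Cell types that could share these transcripts also varied. Of the 7 cholangiocyte markers, Sox9 and Spint2 were well above background on all 8 arrays. In AIM-/- livers 2, 3, 6 and 7 of the 7 were well above background at 0, 6, 12 and 20 weeks, and in AIM+/+ livers 4, 2, 2 and 7 were. Their summed signal ran from 409 to 768 over AIM-/- arrays and from 257 to 1156 over AIM+/+ arrays, and 0 of 7 passed on the diet. At 0, 6, 12 and 20 weeks Krt19, a bile duct keratin, gave 7.79, 132, 91.3 and 167 in AIM-/- liver. In AIM+/+ liver it gave 38.1, 14.2, 19.7 and 279. Its AIM-/- chow value and its AIM+/+ values at 6 and 12 weeks were not well above background. Sox9, a transcription factor of bile duct cells, gave 355, 186, 218 and 101 in AIM-/- and 157, 125, 174 and 134 in AIM+/+ liver. Spint2 gave 71.0, 46.3, 80.0 and 60.9 in AIM-/- and 89.1, 75.1, 58.0 and 57.9 in AIM+/+ liver. Krt19 and Sox9 were thus higher in AIM-/- liver at 6 and 12 weeks and lower at 20. Spint2 was lower at 6 weeks and higher at 12 and 20. Over the list, markers well above background on at least 1 array of a week were counted. Higher in AIM-/- liver were 1 of 4 on chow, 2 of 3 at 6 weeks, 6 of 6 at 12 weeks and 1 of 7 at 20 weeks. Of 10 stellate cell and fibroblast markers 1 rose, Lrat by 0.69 (adjusted p = 0.0497). Of the 5 markers of dendritic cells, which also carry Itgax, 0 passed, with a median of -0.11 and 2 of 5 well above background on all arrays. Of the 6 markers of T and NK cells, 5 were well above background on all arrays and 0 of 6 were called on the diet. At 0, 6, 12 and 20 weeks they averaged 0.36, -0.27, 1.59 and 0.79 log2 units from the chow mean in AIM-/- liver. In AIM+/+ liver they averaged -0.36, -0.07, 0.29 and 0.66. Hepatocyte markers (0 of 7, median -0.22) were well above background on all 8 arrays. The part of these cell types in the members' values was not tested.

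**Figure D4:**
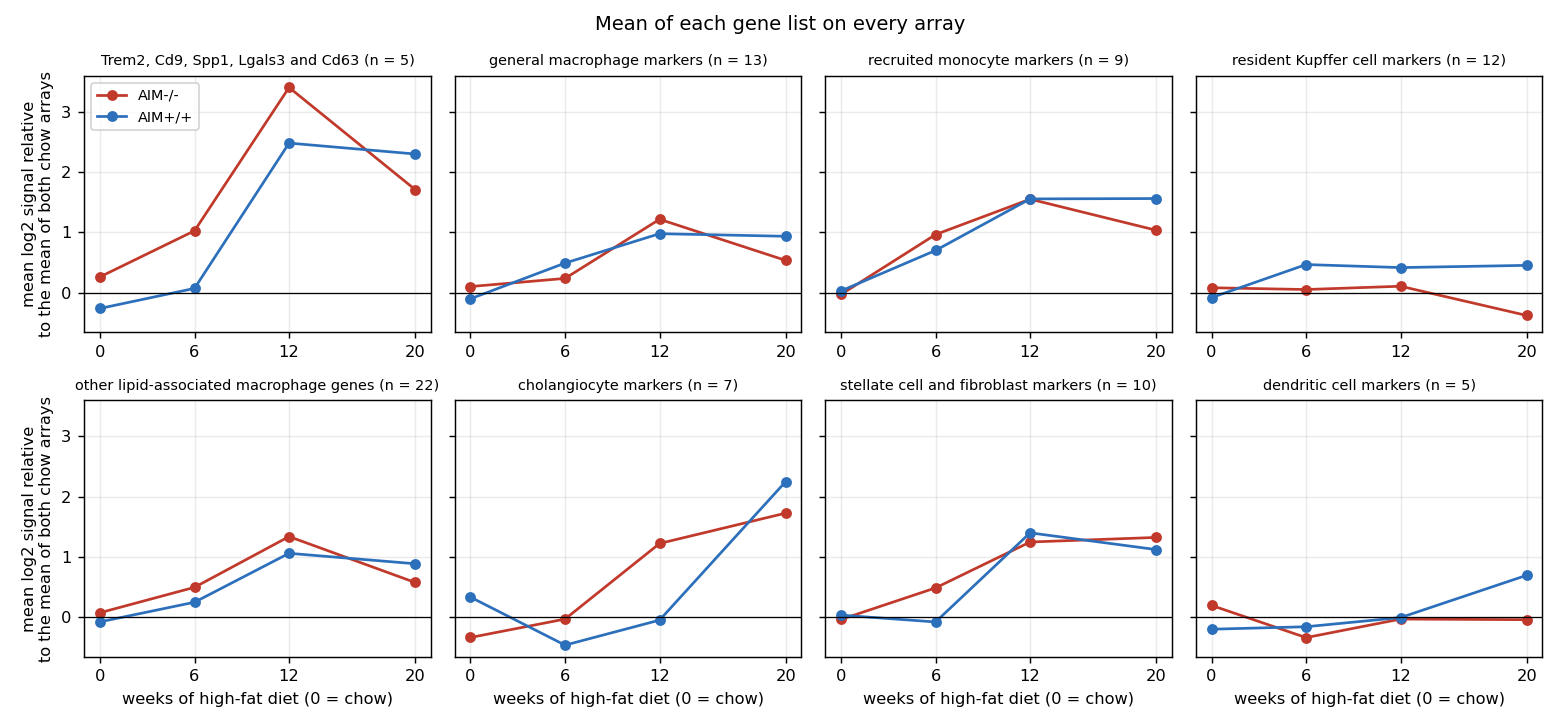
Mean log2 signal of Trem2, Cd9, Spp1, Lgals3 and Cd63, the members measured on all arrays, and of 7 other lists on each array, relative to the mean of both chow arrays, against weeks of high-fat diet (AIM-/- red, AIM+/+ blue, n genes in each title). Lists other than the macrophage and Kupffer cell markers include dim values. The members reach 3.40 in AIM-/- and 2.48 in AIM+/+ liver at 12 weeks, where general macrophage markers reach 1.22 in AIM-/- and 0.98 in AIM+/+ liver, and Kupffer cell markers stay between -0.38 and 0.47 on all arrays.

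Likeness to Trem2 and Spp1 over the 8 arrays was ranked by Pearson correlation among the 11682 tested genes with a RefSeq symbol, members left out. Most like Trem2 were Myo1g (0.994), Parvg (0.989), Fut7 (0.989), Amz1 (0.987) and Acss1 (0.984). Most like Spp1 were Adam15 (0.996), Elovl7 (0.993), AI413582 (0.992), Wls (0.990) and Agpat4 (0.987). Elovl7 was well above background on 4 of the 8 arrays. These are descriptions of 8 points that share their arrays.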

How the data were processed

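Liver RNA was measured on 8 one-colour Agilent arrays. The processed intensity of each spot is background-subtracted, per the file headers (protocol GE1-v5_95_Feb07, design 014868). The submitters' processing notes name Agilent Feature Extraction 9.5. The deposited value table holds log2 intensity minus each array's 75th percentile: it matched the values computed here, and its row names were not otherwise needed. From the processed intensity, control spots (1639) and spots marked as outliers (75 to 130 on an array) were dropped, replicate spots averaged, the 75th percentile subtracted on the log2 scale, and the brightest kept probe taken for each gene. An array had 18589 to 21120 of its 41174 probes well above background, and the number of arrays limits the precision.

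Genes were fitted with limma 3.58.1 (R 4.3.3, and data.table at version 1.17.8 to read files) with week as a factor and genotype, which leaves 3 residual degrees of freedom, and Benjamini-Hochberg adjustment over 15340 genes at 0.05. Genotype by diet used 4 cells and the lone chow arrays were assumed to vary like the rest. On simulated data the diet fit recovered 43% of 2-fold and 82% of 8-fold changes, and the step between 6 and 12 weeks 25% and 77%. Bounds ("at least") take a dim array at its own signal or at the lowest signal marked well above background, whichever was higher. Named genes were all members and up to 4 genes of each list past the threshold, or else the 2 with the smallest p. The 5 genes most correlated with Trem2 and with Spp1 were also named, among genes with a RefSeq symbol outside the members. Members, lists and the fit of a change per week by genotype were chosen with earlier results of these data known. Alternatives were normexp background with an offset of 50, quantile normalization, the deposited table, 2 filters, the mean of probes and leaving out arrays. Plots were drawn with matplotlib 3.10.9.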

Additional observations from a re-analysis of the deposited data

Results flagged for a closer look

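Among the 4 AIM-/- arrays, the Cd9 signal at 12 weeks stood far from the other 3: its gap to the nearest array was 0.854 of the whole range on the log2 scale, against a critical value of 0.829 for 4 samples. The 4 values belong to different weeks and are not replicates. It was the only one of 24 sets checked (8 genes in the AIM-/- arrays, the AIM+/+ arrays and the high-fat diet arrays), and chance gives about 1 in 20 such sets.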

How the results depend on the processing

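No paired analysis was possible because every group holds 1 array and the only replicate number is 1 in each. Slide could not enter as a block, since each slide holds 1 genotype. The count of members called on the diet, 2 as reported, was 4 with normexp background (Trem2, Gpnmb, Spp1 and Lgals3, with 693 of all genes called against 358), 1 with quantile normalization (Ccr2, 233 genes), 0 of 10 members without a filter on dim probes (27 genes) and 4 of 5 with a strict filter, signal well above background on all 8 arrays (Trem2, Spp1, Lgals3 and Cd63, 909 genes). Where Gpnmb or Ccr2 was called, the filter had fixed the direction. The count was 0 to 3 when 1 array or both arrays of a week were left out (0 to 519 genes). The cause was not tested, except that a filter changes how many genes are adjusted for and also the standard errors. With the strict filter the diet coefficient of Trem2 was the same and its SE was 0.38, against 0.43. The deposited table gave 2 again, as did the mean of a gene's probes. By genotype, by step between weeks and by interaction the count of members stayed at 0 in each setting run. With 6 weeks against chow, 18 genes were called with normexp, 3 with quantile normalization and 23 with the strict filter, against 1. With 20 against 12 weeks, 9 were called with no filter, 12 with normexp, 1 with the strict filter, 28 with the mean of probes and 1 to 13 with arrays left out, against 18. The interaction with diet called 111 genes without a filter. Genotype called 3 with the strict filter and 1 with arrays left out, against 5. Members at least 2-fold apart on chow numbered 1 with normexp, against 2.

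The genotype difference of Ccr2 was -0.0030 with normexp. With arrays left out, Cd9 by genotype ran from -0.042 to 0.45, Lgals3 by genotype from -0.034 to 0.38 and Cd9 by diet from -0.19 to 0.55. For 20 minus 12 weeks, without the AIM-/- array at 20 weeks, Trem2 turned to 0.015, Cd9 to 0.0055, Spp1 to 0.094 and Itgax to 0.17; their ranges began at -1.51, -1.15, -1.56 and -1.86. The step between 6 and 12 weeks kept its direction for all 8 genes in each setting run, though Gpnmb and Ccr2 were at background at 6 weeks. Signal near background limits Gpnmb, Ccr2, Mmp12 and Ctsk.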

Other observations

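In AIM-/- livers the calprotectin subunit S100a9 averaged a scaled signal of 984, against 2387 in AIM+/+ livers (log2 difference -1.28, SE 0.19, adjusted p = 0.295, limma), and S100a8 averaged 78.0 in AIM-/- livers, against 175 in AIM+/+ livers (adjusted p = 0.378). Of the neutrophil markers well above background on both arrays of a week, 0 of 3 were higher in AIM-/- liver at 0 weeks, 0 of 3 at 6 weeks, 1 of 4 at 12 weeks and 0 of 4 at 20 weeks. Marco, a scavenger receptor of Kupffer cells, averaged 1921 in AIM-/- livers, against 4015 in AIM+/+ livers (log2 difference -1.06, SE 0.35, adjusted p = 0.809, limma). Folr2, another Kupffer cell marker, differed by -0.39 (SE 0.13, adjusted p = 0.809, limma). Over the 12 Kupffer cell markers the median difference was -0.19, with 3 of 12 higher in AIM-/- livers. None of these differences passed the threshold.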
